A study of Mus musculus with 6 samples.

Results

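Transcripts of the interferon receptors and of the proteins that carry their signal were examined in donor HSPCs (hematopoietic stem and progenitor cells) soon after BMT (bone marrow transplantation). The set was given by name, by a rule that uses no measured value but with earlier results of these data known, and holds 9 of the 24965 genes in the deposited table. These are the receptor chains Ifngr1, Ifngr2, Ifnar1 and Ifnar2, the Janus kinases Jak1, Jak2 and Tyk2, the transcription factor Stat2 and the phosphatase Ptpn2. All 9 were detected in every library and passed the filter on low values.

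RNA-seq had been performed on cells from 3 WT and 3 Hemgn-/- replicates at 6 h post-BMT, to find which transcripts differ between the genotypes early in homing. Hemgn-/- mice carry a germline disruption made with zinc finger nucleases in C57BL/6, so every donor cell type lacks the intact gene, and WT littermates served as controls. Mice of both sexes aged 8 to 10 weeks were used. In both groups BM cells of CD45.2+ donors were injected into CD45.1+ recipients that had received 9 Gy in a split dose, so donor cells of either genotype had been placed in an irradiated host. The sample labels describe the sorted cells as donor cells that are Lin- and Sca-1+, whereas the series text and the methods add c-Kit, and the labels and the methods name different injection routes and library kits. Whether each replicate came from 1 recipient or from several is not given in the sources used here.

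IFN-γ binds a receptor made of IFNGR1 and IFNGR2, which bring the kinases JAK1 and JAK2 together. The type I interferons bind IFNAR1 and IFNAR2, which bring TYK2 and JAK1 together. The activated kinases phosphorylate STAT proteins, which enter the nucleus and switch on interferon target genes. STAT2 joins IRF9 in the complex formed after type I interferon, and PTPN2 removes phosphate from JAK1, JAK3 and nuclear STAT proteins. In blood-forming tissue, interferon is known to drive dormant HSCs into cycle and, when prolonged, to exhaust them.

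Promoter sequences are shown for 4 of these genes because 3 of them lie in 1 receptor cluster, where Ifngr2 and Ifnar1 passed the test described below and Ifnar2 did not, and the fourth holds the one match to a type I interferon motif. They come from RefSeq on GRCm38.p6, where 8 of the 9 genes had an entry, and each runs from 250 bases before the transcription start to 20 bases into the first exon, 5′ to 3′ on the plus strand. Capitals mark letters that match the GAS motif bound after IFN-γ, TTCNNNGAA, or the ISRE motif bound after type I interferon, which is GAAA, any 2 bases and GAAA again, searched on both strands. No match of one motif overlapped a match of the other. The Ifngr2 window lies at chr16:91546809-91547078, Ifnar1 at chr16:91484965-91485234, Ifnar2 at chr16:91372533-91372802 and Stat2 at chr10:128270248-128270517.
Ifngr2: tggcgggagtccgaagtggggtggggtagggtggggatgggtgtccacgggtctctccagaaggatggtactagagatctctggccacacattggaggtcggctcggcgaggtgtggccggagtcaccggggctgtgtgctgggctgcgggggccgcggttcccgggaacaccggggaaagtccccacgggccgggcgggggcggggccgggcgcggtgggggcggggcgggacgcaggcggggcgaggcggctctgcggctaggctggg
Ifnar1: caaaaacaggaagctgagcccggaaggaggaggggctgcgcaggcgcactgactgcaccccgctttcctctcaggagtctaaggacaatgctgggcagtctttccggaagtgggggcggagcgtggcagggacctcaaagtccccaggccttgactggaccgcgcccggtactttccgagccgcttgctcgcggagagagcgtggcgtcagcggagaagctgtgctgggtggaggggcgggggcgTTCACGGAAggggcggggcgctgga
Ifnar2: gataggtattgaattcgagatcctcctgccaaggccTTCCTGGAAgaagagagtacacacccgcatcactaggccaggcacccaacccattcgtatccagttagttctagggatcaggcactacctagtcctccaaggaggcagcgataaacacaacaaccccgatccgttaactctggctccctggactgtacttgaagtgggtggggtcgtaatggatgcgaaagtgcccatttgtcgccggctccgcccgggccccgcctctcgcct
Stat2: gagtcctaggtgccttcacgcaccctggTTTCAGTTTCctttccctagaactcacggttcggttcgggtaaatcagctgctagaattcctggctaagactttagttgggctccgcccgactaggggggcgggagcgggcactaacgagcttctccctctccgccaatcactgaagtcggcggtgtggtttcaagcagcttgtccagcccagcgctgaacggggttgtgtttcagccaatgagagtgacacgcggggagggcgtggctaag
Ifnar1 held the GAS match TTCACGGAA with its first base at -5 from the start, and Ifnar2 held TTCCTGGAA at -214. The Stat2 promoter had no GAS match and held an ISRE match on the reverse strand, printed here as TTTCAGTTTC, at -222. Ifngr1, Ifngr2, Jak1, Jak2 and Tyk2 had no match to either motif in the window searched, which runs to 50 bases after the start. Among all 32851 RefSeq promoters of the same 300 bases, 8.30% held the GAS letters and 3.44% the ISRE letters. The 8 promoters held 14 to 44 CpG dinucleotides each, against a median of 7 over all promoters. A match of letters is a description and not a binding site.

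The deposited values are FPKM, that is fragments per kilobase of exon scaled to the total of the library. Whole fragments were recovered from the steps between low values, with totals of 23668015 to 28897360 a library, and the 9 genes rested on 628 to 22799 fragments each in a library. Hemgn itself stood at 2.96 to 5.64 FPKM in the WT libraries and at 0.755 to 1.60 in the Hemgn-/- libraries, with no overlap. The log2 fold change of FPKM + 1 was -1.37, with an adjusted p of 0.0114 by limma, and the ratio of mean FPKM was 0.246. The HSPC label sat beside low HSPC markers. Kit was at 5.50 to 7.24 FPKM over the 6 libraries and Ly6a, which encodes Sca-1, at 8.27 to 17.3, whereas the neutrophil granule transcript Ngp reached 46692. Neutrophil markers together held 19.4% to 20.8% of the FPKM total in WT and 13.4% to 14.4% in Hemgn-/- libraries. In such bulk samples fewer cells of a type and less RNA per cell cannot be told apart.

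The IFN-γ receptor chains were the most abundant receptor transcripts of the set. In the WT libraries the order by mean FPKM was Ifngr1, Jak1, Ifngr2, Ifnar2, Stat2, Ifnar1, Ptpn2, Tyk2 and Jak2, and at each step every library of the higher gene lay above every library of the next. Ifngr1 was among the top 1.62% of genes tested in WT HSPCs, and Jak2, the scarcest of the 9, was still in the top 41.2%. In Hemgn-/- libraries the order was the same but for Tyk2 and Ptpn2, which changed places. There the libraries of Ifnar2 overlapped those of Stat2, those of Stat2 overlapped those of Ifnar1, and those of Tyk2 overlapped those of Ptpn2, so these neighbours did not differ beyond their spread.

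**Figure D1:**
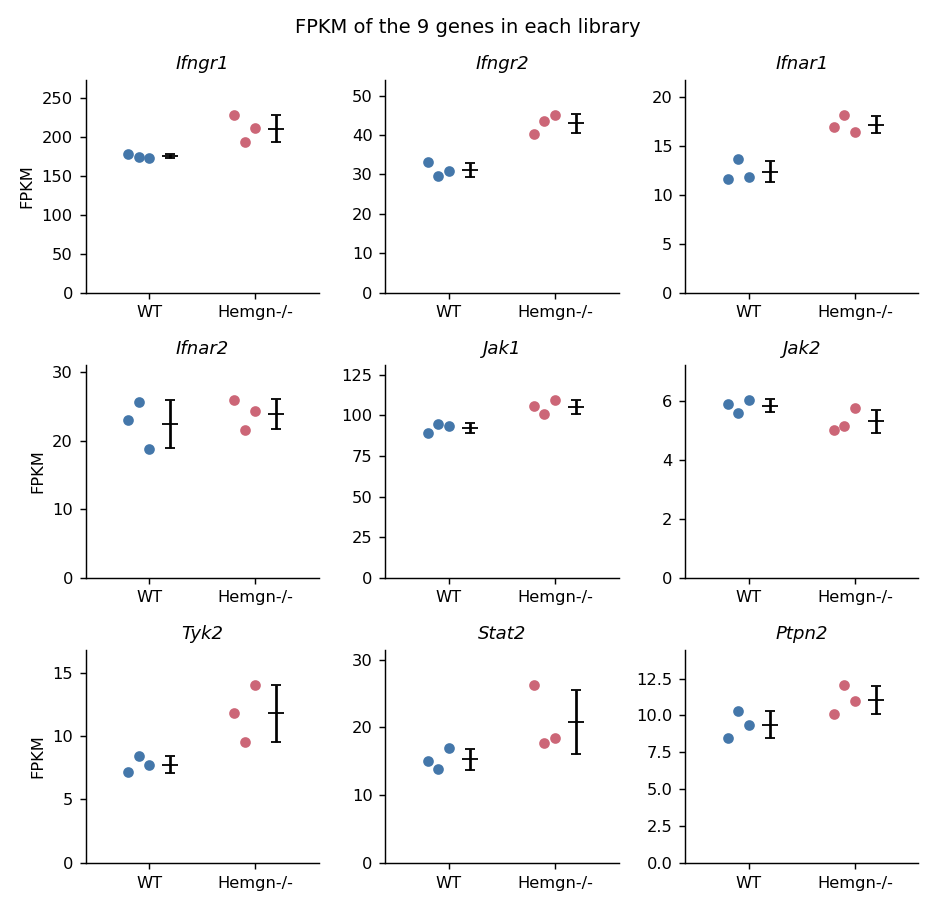
FPKM of each of the 9 genes (vertical axes, linear and starting at 0) in the 3 WT and 3 Hemgn-/- libraries, 1 point for each library, with the group mean and SD as a bar beside the points. The points of the groups are apart for Ifngr1, Ifngr2, Ifnar1, Jak1, Tyk2 and Stat2, with Hemgn-/- higher, and overlap for Ifnar2, Jak2 and Ptpn2.

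Ifngr1 (ENSMUSG00000020009, chr10:19591949-19610229, GRCm38) encodes the chain that binds IFN-γ and docks JAK1. Its FPKM values were 178, 174 and 173 in WT and 228, 193 and 211 in Hemgn-/- replicates 1 to 3, the order used throughout. The WT libraries were nearly level, and the lowest Hemgn-/- library lay above all of them. The means were 175 ± 2.71 and 211 ± 17.5 FPKM (SD, n = 3), and the log2 fold change of 0.26 (95% interval 0.09 to 0.43) missed the threshold with an adjusted p of 0.0757 by limma with Benjamini-Hochberg adjustment. It passed without Hemgn-/- replicate 2, at 0.32 with an adjusted p of 0.0482, within a range of 0.0329 to 0.298 over 15 alternatives.

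Ifngr2 (ENSMUSG00000022965, chr16:91547072-91565623) encodes the signalling chain that docks JAK2, and its level is known to limit IFN-γ responses in some lymphocytes. Its FPKM was 33.2, 29.6 and 30.9 in WT and 40.3, 43.7 and 45.1 in Hemgn-/- HSPCs. All Hemgn-/- libraries stood above all WT libraries. Ifngr2 rose 1.38-fold in mean FPKM, with a log2 fold change of 0.45 (SE 0.083, 95% interval 0.26 to 0.64) and an adjusted p of 0.0158 by limma, the lowest of the 9 genes. Over 15 alternatives its adjusted p ran from 0.00643 to 0.0825 and was under 0.05 in 11. It was 0.0559 without WT replicate 3, 0.0567 without Hemgn-/- replicate 2, 0.0825 without Hemgn-/- replicate 3 and 0.0765 without a mean-variance trend. The Ifngr2 promoter had the highest GC content of the 4 shown, at 74.3%, and held neither motif. By flow cytometry on donor cells at a later time, the paper found IFNGR1 and IFNGR2 protein unchanged by loss of Hemgn. The values given here are RNA from bulk samples and do not measure the receptor on the cells.

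Ifnar1 (ENSMUSG00000022967, chr16:91485238-91507441) encodes the type I receptor chain that docks TYK2. It was at 11.6, 13.6 and 11.8 FPKM in WT and at 16.9, 18.1 and 16.4 FPKM in Hemgn-/- libraries. The lowest Hemgn-/- value lay above the highest WT value. Ifnar1 rose 1.39-fold in mean FPKM, with a log2 fold change of 0.45 (SE 0.098, 95% interval 0.22 to 0.67) and an adjusted p of 0.0332 by limma. Its adjusted p ran from 0.0133 to 0.105 over the alternatives and was under 0.05 in 5 of 15. The call was lost without WT replicate 1 (0.105), WT replicate 3 (0.102), or Hemgn-/- replicate 1 (0.0715), 2 (0.105) or 3 (0.0920), and with median-ratio scaling (0.0905).

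Ifnar2 (ENSMUSG00000022971, chr16:91372783-91405589) encodes the chain with the higher affinity for type I interferon, which docks JAK1. It was at 23.0, 25.6 and 18.8 FPKM in WT and at 25.9, 21.6 and 24.3 in Hemgn-/- libraries. The groups overlapped, and WT replicate 3 was the lowest of the 6 libraries. The log2 fold change of 0.09 had a 95% interval from -0.19 to 0.38 and an adjusted p of 0.703 by limma. Its sign turned with median-ratio scaling, to -0.0045, and without WT replicate 3, to -0.02. Gm21970, which is not in the deposited table, shares 315 exon bases with Ifnar2 on the same strand. How fragments from these bases were counted is not given in the sources used here, so the Ifnar2 values may miss a part of them.

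Ifnar2, Ifnar1 and Ifngr2 lie in 1 cluster on chromosome 16 that spans 192841 bases, with Il10rb between Ifnar2 and Ifnar1. Il10rb encodes the chain shared by the receptors for IL-10, IL-22 and interferon lambda. It was at 18.3, 23.3 and 20.8 FPKM in WT and at 29.0, 26.1 and 29.7 in Hemgn-/- libraries, without overlap. Its log2 fold change was 0.43 (SE 0.11), close to those of Ifnar1 and Ifngr2, with an adjusted p of 0.0502 by limma, and the range over the alternatives was 0.0237 to 0.176, with 0.0335 without WT replicate 2. Of the 4 receptor genes in the cluster, Ifnar2 had the smallest difference.

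Set against Ifnar2 within each library, Ifnar1 stood at a ratio of 0.506, 0.531 and 0.627 in WT and 0.651, 0.839 and 0.676 in Hemgn-/- HSPCs. A ratio within a library does not depend on the scaling between libraries. The Ifnar1 to Ifnar2 ratio was higher in all 3 Hemgn-/- libraries, by 0.38 on the log2 scale (exact two-sided permutation p = 0.1, which is the smallest that 3 against 3 can give, and 0.167 after adjustment over 5 ratios). The Ifngr1 to Ifngr2 ratio was 5.37, 5.88 and 5.60 in WT and 5.65, 4.41 and 4.69 in Hemgn-/- libraries, which overlapped (exact permutation p = 0.3, adjusted p = 0.375).

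None of the 3 kinase genes passed the adjusted threshold in limma, where 4.37% of all genes were higher and 2.09% lower. At an unadjusted p under 0.05, 2 of the 3 were higher, Jak1 and Tyk2, against 15.0% of all genes. Tyk2 also passed the adjusted threshold by voom. The fold changes of the 3 kinase genes had both signs. Jak1 (ENSMUSG00000028530, chr4:101152367-101265282) encodes the kinase used by both receptors. It was at 88.9, 94.4 and 93.6 FPKM in WT and at 105, 101 and 109 FPKM in Hemgn-/- libraries, apart from each other. Its difference was small, with a log2 fold change of 0.19 (95% interval 0.04 to 0.34) and an adjusted p of 0.149 by limma. Over the alternatives this p ran from 0.0459 to 0.556.

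Tyk2 (ENSMUSG00000032175, chr9:21104068-21131243) encodes the kinase bound to IFNAR1. It was at 7.13, 8.45 and 7.68 FPKM in WT and at 11.8, 9.53 and 14.0 in Hemgn-/- libraries. The Hemgn-/- libraries were spread widely but all stood above WT. Tyk2 had the largest log2 fold change of the 9 genes, 0.53 (95% interval 0.21 to 0.86), with an adjusted p of 0.0641 by limma that missed the threshold. The adjusted p ran from 0.0320 to 0.196 over the alternatives and was 0.0369 without Hemgn-/- replicate 2, where the fold change was 0.67. The antisense gene 1700084C06Rik, which is not in the deposited table, shares 554 exon bases with Tyk2. Whether the counting used strand is not given in the sources used here, so fragments of the pair cannot be told apart there.

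Jak2 (ENSMUSG00000024789, chr19:29251828-29313080) encodes the kinase bound to IFNGR2 and to the erythropoietin and thrombopoietin receptors. It was at 5.89, 5.59 and 6.02 FPKM in WT and at 5.01, 5.16 and 5.74 FPKM in Hemgn-/- libraries, on 680 to 839 fragments a library. Hemgn-/- replicate 3 lay within the WT range, and the other Hemgn-/- libraries below it. Jak2 was the only one of the 9 with a fold change below 0, at -0.12 with a 95% interval from -0.37 to 0.13 and an adjusted p of 0.583 by limma, and it stayed below 0 in all 15 alternatives, without a call.

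Ratios between the kinases were also compared within libraries. The Jak1 to Jak2 ratio was 15.1, 16.9 and 15.5 in WT and 21.0, 19.5 and 19.0 in Hemgn-/- libraries, and all 3 Hemgn-/- values were above all WT values. The Jak1 to Tyk2 ratio was 12.5, 11.2 and 12.2 in WT and 8.92, 10.6 and 7.81 in Hemgn-/- libraries, all of them below WT. These differences were 0.33 and -0.40 on the log2 scale, each with the smallest exact two-sided permutation p of 0.1 (0.167 after adjustment over 5 ratios).

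Stat2 (ENSMUSG00000040033, chr10:128270559-128292849) encodes a STAT protein of the type I pathway and is itself an interferon target gene. It was at 15.0, 13.9 and 17.0 FPKM in WT and at 26.2, 17.8 and 18.4 in Hemgn-/- libraries. Hemgn-/- replicate 1 was far above the other 5 libraries, and the remaining Hemgn-/- libraries lay just above WT. The log2 fold change was 0.40 (95% interval 0.06 to 0.75) with an adjusted p of 0.170 by limma. Without Hemgn-/- replicate 1 it was 0.23, and no alternative called it, with adjusted p from 0.0879 to 0.338. Its ISRE match is the one shown in capitals above.

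Ptpn2 (ENSMUSG00000024539, chromosome 18) encodes the T cell protein tyrosine phosphatase, whose nuclear form is TC45. It was at 8.49, 10.3 and 9.34 FPKM in WT and at 10.1, 12.0 and 11.0 FPKM in Hemgn-/- libraries. The groups overlapped at WT replicate 2 and Hemgn-/- replicate 1. The log2 fold change was 0.22 with a 95% interval from -0.04 to 0.47 and an adjusted p of 0.312 by limma. Relative to Jak1, which its product dephosphorylates, Ptpn2 stood at 0.0955, 0.109 and 0.0998 in WT and 0.0959, 0.119 and 0.101 in Hemgn-/- libraries. The 2 ranges overlapped (log2 difference 0.05, exact permutation p = 0.6, adjusted p = 0.6), and the sign of this difference turned without Hemgn-/- replicate 2, to -0.04. In sorted cells treated with IFN-γ, the paper reported TC45 protein levels unchanged by loss of Hemgn.

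**Figure D2:**
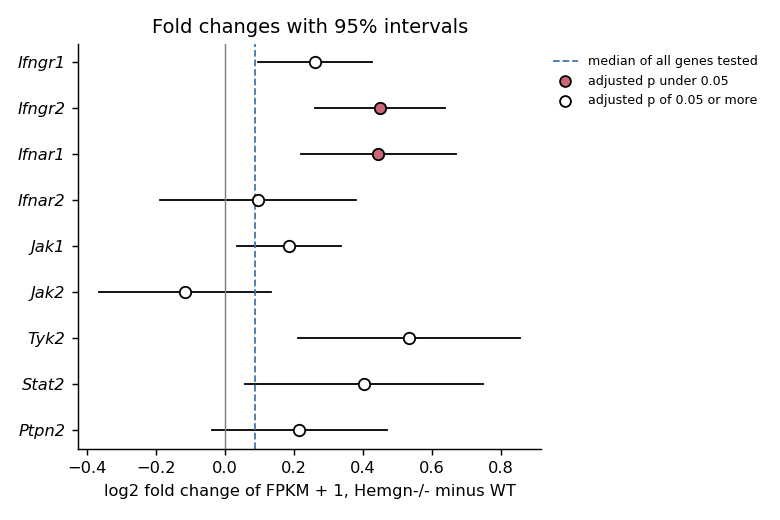
Log2 fold changes of FPKM + 1, Hemgn-/- minus WT (horizontal axis), of the 9 genes with 95% intervals from limma. Filled points have an adjusted p under 0.05, the dashed line marks the median of all genes tested (0.087), and Ifngr2 and Ifnar1 are the filled points while Jak2 lies left of 0.

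Counted over the set, 2 of the 9 genes were higher in Hemgn-/- HSPCs at an adjusted p under 0.05, Ifngr2 and Ifnar1, where 4.37% of the 13739 genes tested were higher. None was lower (limma, 0 at an unadjusted p under 0.05 and 0 by limma's voom on recovered fragments), against 2.09% of all genes. At an unadjusted p under 0.05, 6 of 9 were higher against 15.0% of all genes, and 0 were lower, against 6.46%. The libraries did not overlap for 6 of 9, all higher, against 19.2% of all genes, and for 0 of 9 with all Hemgn-/- libraries below, against 8.18%. On the log2(FPKM + 1) scale no gene of the set had both an unadjusted p under 0.05 and a 1.5-fold change, although Tyk2 had a ratio of mean FPKM of 1.52. On that log2 scale 4.1% of all genes passed both limits in the higher and 2.74% in the lower direction. The median log2 fold change of the 9 was 0.26, against 0.087 over all genes tested.

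The size of this count depended on the scaling and on single libraries. With median-ratio scaling the median of all genes moved to 0.0068 and that of the 9 genes to 0.16, and 1 gene was called, Ifngr2. With each library brought to the same FPKM total the medians were 0.18 and 0.35, and 5 genes were called, Ifngr1, Ifngr2, Ifnar1, Jak1 and Tyk2. Over all genes the split of higher to lower calls went from 600 and 287 on the deposited values to 341 and 386, 368 and 346 with quantile normalization, and 1049 and 238 with equal totals. Without WT replicate 3 or Hemgn-/- replicate 3 none of the 9 was called, without WT replicate 1 or Hemgn-/- replicate 1 only Ifngr2 was, and without Hemgn-/- replicate 2 the 2 called genes were Ifngr1 and Tyk2.

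**Figure D3:**
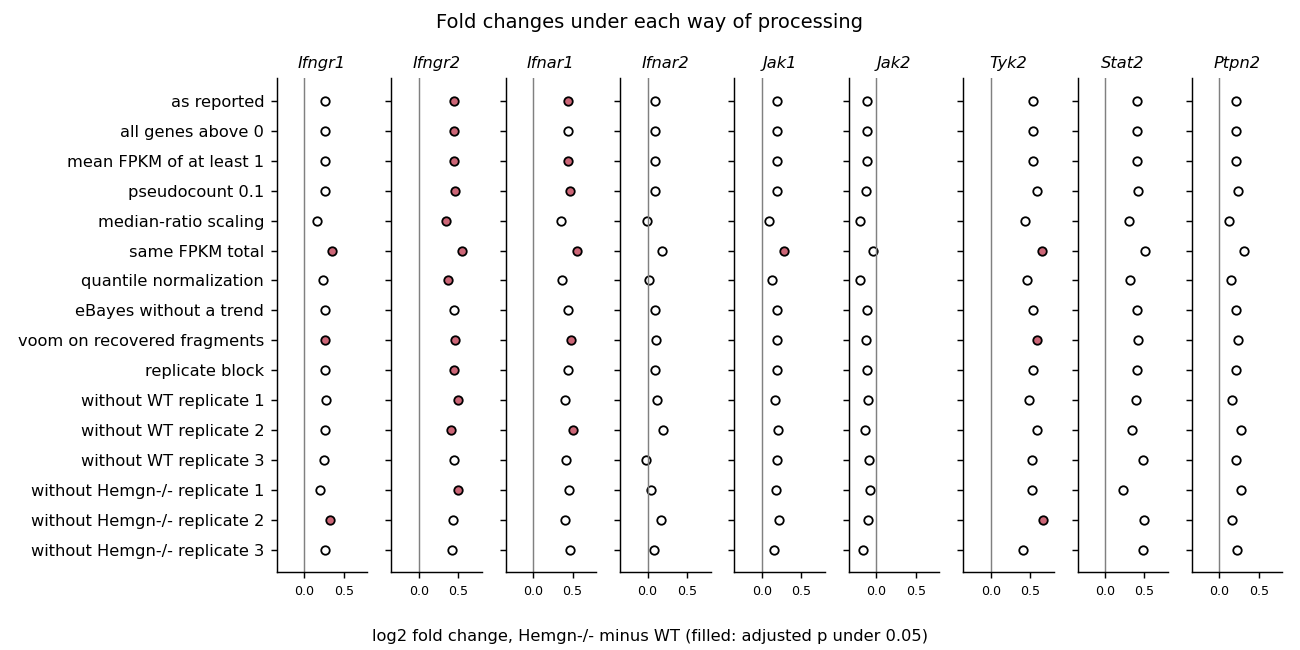
Log2 fold change, Hemgn-/- minus WT (horizontal axes), of each of the 9 genes (columns) as reported and under 15 alternatives (lines), with filled points for an adjusted p under 0.05. The points of Ifngr1, Ifngr2, Ifnar1, Jak1, Tyk2, Stat2 and Ptpn2 stay right of 0 and those of Jak2 left of 0 in every line, while those of Ifnar2 cross 0.

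Other genes of the pathway were taken from lists by role, of which 44 of 49 genes were in the table and tested. Of these, 15 were higher and 0 lower at an adjusted p under 0.05 (limma, with 0 lower at an unadjusted p under 0.05 and 0 by voom), against 4.37% and 2.09% of all genes, and their median log2 fold change was 0.30. No call fell on the ligand, the lambda receptor chains, the other JAK and STAT genes or the transport factors and coactivators, against 4 of 13 phosphatases and inhibitors and 11 of 14 interferon targets.

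Of 6 listed ligands only Ifng, the ligand of IFNGR1, was found by symbol in the deposited table. None of the listed type I and lambda ligands was found there. Ifng was at 3.10, 2.47 and 2.01 FPKM in WT and at 3.71, 3.30 and 3.69 in Hemgn-/- libraries. These low levels did not overlap, but the log2 fold change of 0.38 had an adjusted p of 0.193 by limma. Ifnlr1, the lambda receptor chain that pairs with Il10rb, overlapped between the groups, at 4.43 to 7.83 FPKM in WT and 7.14 to 9.45 in Hemgn-/- libraries.

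Among the other JAK and STAT genes 0 of 7 passed the adjusted threshold (limma), where 4.37% of all genes were higher and 2.09% lower. At an unadjusted p under 0.05, 4 of the 7 were higher, against 15.0% of all genes. Their median log2 fold change was 0.20. Jak3, the kinase of common gamma chain receptors, had 0.46 (adjusted p = 0.0854) and Stat5a, used by many hematopoietic cytokines, 0.41 (adjusted p = 0.0957), both from limma. Stat6, the STAT of IL-4 signalling, stood at 104 to 113 FPKM in WT and 125 to 137 in Hemgn-/- libraries, the highest level of these 7, with a log2 fold change of 0.26 (limma adjusted p = 0.0641). Irf9, the partner of STAT2, was at 64.0 to 66.9 FPKM in WT and 70.5 to 76.0 in Hemgn-/- libraries, more than STAT2's own transcript in both groups, and its log2 fold change was 0.18 (limma adjusted p = 0.182).

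Of the 13 genes for phosphatases and inhibitors, which damp the pathway, 4 rose and none fell at the adjusted threshold (limma, 8 and 0 at an unadjusted p under 0.05). Of all genes, 4.37% rose and 2.09% fell at the adjusted threshold, and 15.0% and 6.46% at the unadjusted one. Socs3, which inhibits JAK kinases on cytokine receptors, rose from 74.3, 67.0 and 64.2 FPKM in WT to 121, 128 and 119 in Hemgn-/- libraries, a log2 fold change of 0.83 (SE 0.076, adjusted p = 6.63e-04 by limma). Usp18, which binds IFNAR2 and limits type I signalling, rose by 0.69 (adjusted p = 0.0123 by limma, with a range of 0.00717 to 0.0633 over the alternatives and the highest value without Hemgn-/- replicate 3). Ptpn6, the phosphatase SHP-1 of blood cells, rose by 0.39 on the log2 scale (limma adjusted p = 0.00737). Ptprc, which encodes CD45, rose by 0.30 (limma adjusted p = 0.0344, range over the alternatives 0.00411 to 0.156). That call was lost without WT replicate 1 (0.110), 2 (0.0647) or 3 (0.0922) and without Hemgn-/- replicate 1 (0.0876) or 3 (0.144). Socs1, the inhibitor most specific to interferon signals, was at 37.3 to 42.7 FPKM in WT and 44.4 to 49.9 in Hemgn-/- libraries, with a log2 fold change of 0.24 that did not pass (limma adjusted p = 0.149). Ptpn1, the nearest relative of Ptpn2, also had 0.24 (limma adjusted p = 0.110).

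The 14 interferon targets had a median log2 fold change of 0.72. Of these, 11 rose at the adjusted threshold (limma), against 4.37% of all genes. The list was chosen with earlier results of these data known, so this count is not independent evidence of a direction. Among targets tied to IFN-γ, the transcription factor Irf1 rose by 0.75, the GTPase gene Gbp2 by 1.10, the MHC class II transactivator Ciita by 0.88, the chemokines Cxcl9 and Cxcl10 by 1.16 and 1.32 and the adhesion molecule Icam1 by 0.70 on the log2 scale, with adjusted p from 2.63e-04 to 0.0176 by limma. These are changes of log2(FPKM + 1), and Cxcl9 was low, with a mean of 1.24 FPKM in WT. The ratio of mean FPKM, Hemgn-/- to WT, was 3.33 for Cxcl9 and 2.73 for Cxcl10. Gbp2 was at 30.8, 27.9 and 25.8 FPKM in WT and at 59.4, 63.0 and 61.7 in Hemgn-/- libraries. Among the antiviral genes typical of type I interferon, Ifit1 rose by 0.52, Ifit3 by 0.58, Rsad2 by 0.59, Mx1 by 0.98 and Ifi44 by 0.81 (adjusted p from 0.00451 to 0.0290 by limma). Irf7, Isg15 and Oas1a had log2 fold changes of 0.30, 0.49 and 0.30 and did not pass. Cxcl9 was not called without WT replicate 1 (0.0604) or Hemgn-/- replicate 3 (0.0554), with its adjusted p from 0.00777 to 0.0768 over the alternatives, and the call of Ifi44 held without WT replicate 2 but not without any other library, with adjusted p from 0.00961 to 0.115 over the alternatives.

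The transport factors and coactivators gave no call in 7 genes (0 at an unadjusted p under 0.05, limma) and a median log2 fold change of -0.04. Over all genes 4.37% were called higher and 2.09% lower, and 15.0% and 6.46% at an unadjusted p under 0.05. Crebbp, a coactivator that STAT proteins recruit, was at 13.9 to 14.7 FPKM in WT and 13.0 to 14.9 in Hemgn-/- libraries. Kpna1, which carries STAT proteins into the nucleus, overlapped as well, at 8.16 to 8.41 and 7.34 to 8.50 FPKM.

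**Figure D4:**
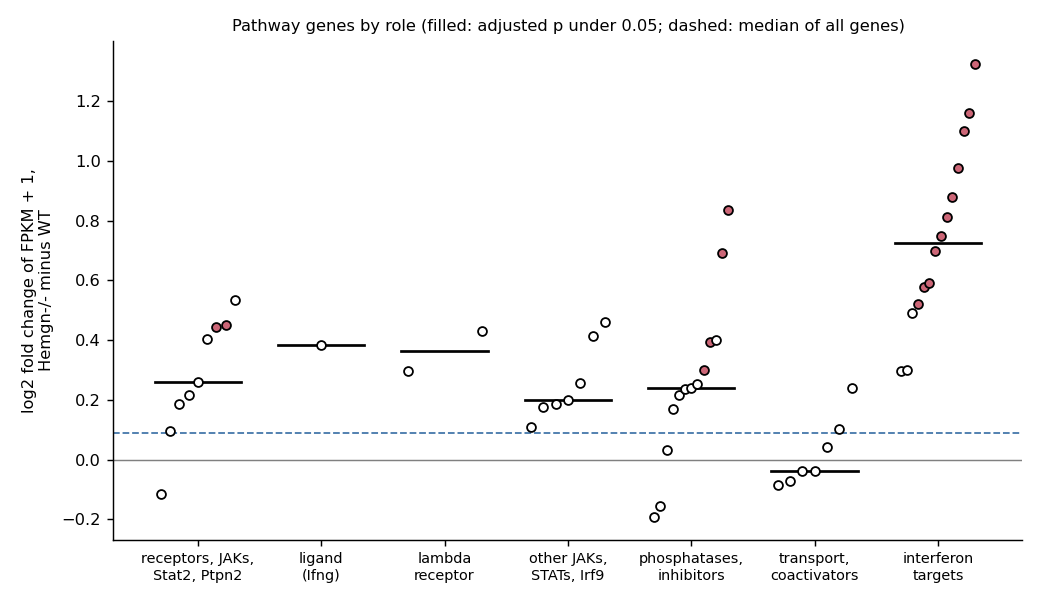
Log2 fold changes of FPKM + 1, Hemgn-/- minus WT (vertical axis), of the 9 genes and of 44 other pathway genes by role, 1 point for each gene, filled where the adjusted p is under 0.05. Bars mark the median of each role and the dashed line that of all genes tested (0.087), and interferon targets have the highest median (0.72) and transport factors and coactivators the lowest (-0.04).

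Markers of other cell types moved with the genotype beside these genes. Counts of markers stand against 4.37% of all genes called higher and 2.09% called lower. Neutrophil markers summed to 72245 to 77848 FPKM in WT and 46180 to 51559 in Hemgn-/- libraries, with 0 of 9 called higher and 5 lower at an adjusted p under 0.05. Erythroid markers summed to 454 to 542 and 27.8 to 43.0 (4 of 7 lower). The eosinophil and basophil list was mixed and summed to 412 to 502 and 250 to 262. In it the eosinophil genes Epx and Prg2 were lower, whereas Cpa3 and Fcer1a of basophils and mast cells stood higher in every Hemgn-/- library without passing the adjusted threshold (limma, log2 fold changes 0.27 and 0.33), and Mcpt8 overlapped. B cell markers summed to 1160 to 1221 in WT and 1380 to 1554 in Hemgn-/- libraries, with 3 of 7 higher, and those of T and NK cells to 121 to 129 and 134 to 158, with 2 of 7 higher. Plasmacytoid dendritic markers, of which at least Irf8 is also an interferon target, summed to 111 to 123 and 152 to 185, with 2 of 6 higher, Irf8 and Siglech. Bst2 and Irf8 made most of this sum, with means of 67.8 and 39.2 FPKM in WT and 79.0 and 66.7 in Hemgn-/- libraries. Bst2 overlapped between the groups.

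The monocyte and macrophage list was mixed, with Csf1r and Adgre1 higher and Lyz2 lower among 8 genes. It summed to 23094 to 25802 FPKM in WT and 16670 to 20795 in Hemgn-/- libraries. Lyz2 alone made most of this sum, with a mean of 24118 FPKM in WT and 18724 in Hemgn-/- libraries. The log2 fold change was above 0 for 6 of the 8 genes and below 0 for 2. HSPC markers summed to 43.4 to 47.6 in WT and 53.4 to 62.5 in Hemgn-/- libraries, with Cd34 and Cd48 of 10 tested higher. Ly6a, with means of 9.38 FPKM in WT and 14.7 in Hemgn-/- libraries, added to this rise without passing the test. Kit was lower in every Hemgn-/- library without passing the test. Endothelial markers summed to at most 7.87 FPKM, with 0 of 3 called. No marker of the 9 lists was at 0 in a library. The part of the markers in the differences of the 9 genes was not tested.

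**Figure D5:**
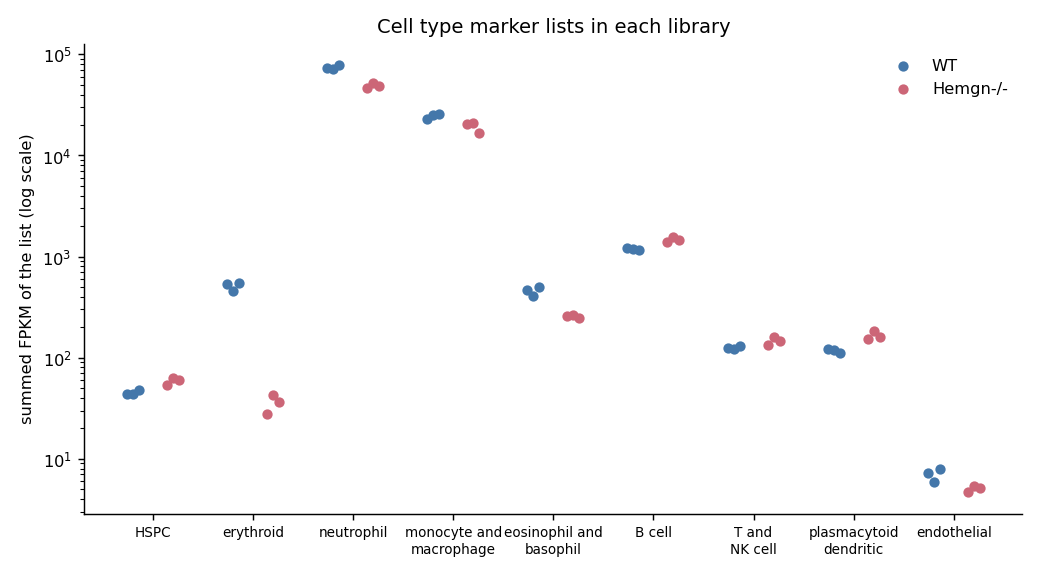
Summed FPKM of 9 cell type marker lists (vertical axis, log scale) in each WT and Hemgn-/- library, 1 point for each library. Erythroid, neutrophil, endothelial, eosinophil and basophil, and monocyte and macrophage sums are lower in all Hemgn-/- libraries, and HSPC, B cell, T and NK cell and plasmacytoid dendritic sums are higher in all of them. The monocyte and macrophage sum is mostly Lyz2, and most other genes of that list had log2 fold changes above 0.

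Across the 6 libraries, the genes whose log2(FPKM + 1) pattern was most like that of each member were looked up among 6290 genes with a mean of at least 5 FPKM. The measure was Pearson's r over 6 libraries that include both genotypes, given as a description. Ifngr1 was most like Msi2 (r = 0.998) and Nob1 (0.996), and Ifngr2 most like Wdr46 and Ikbkb (both 0.996). Ifnar1 was most like Esf1 (0.996) and Mcl1 (0.994), and Ifnar2 most like Rufy4 (0.980). For Jak2 the nearest were Psenen (0.983) and Ptgir (0.971), and for Tyk2 5330406M23Rik (0.990) and Tmem168 (0.988). Stat2 was nearest to Mrpl9 (0.993) and Ywhaq (0.991), and Ptpn2 to Dhx16 (0.991) and Rpl22 (0.987).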

How the data were processed

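RNA-seq of donor HSPCs was analysed for 3 WT and 3 Hemgn-/- libraries, grouped by the genotype in the sample labels. The authors deposited FPKM values, 1 column for each library, with no column left unmapped (0 columns). The submitters' processing notes name Bowtie2 2.2.3, HISAT2 2.1.0, TopHat2, HTSeq 0.6.0 and the build GRCm38, with no role or order. Symbols and exon lengths came from GENCODE M21, which matched 24921 of 24965 genes. Fragments recovered from the FPKM steps were whole in all 6 libraries (tolerance 0.05) for 95.7% of 13472 genes that never exceeded 100 fragments. Replicates differed by far more than counting noise (chi-square per gene 17.5 to 35.2), so none was a copy. Amplified fragments are not independent molecules.

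Values were taken as log2(FPKM + 1), which understates changes of low genes. Limma 3.58.1 (R 4.3.3, eBayes with a trend, all 6 libraries, no covariate) was fitted to genes exceeding 1 FPKM in any library, with Benjamini-Hochberg adjustment over all of them. P-values are two-sided. Ratios used FPKM without a pseudocount and exact permutation tests, in Python 3.11.15 with numpy 2.4.6, pandas 2.3.3, scipy 1.17.1 and matplotlib 3.10.9. Named genes are the 9 members, Hemgn, pathway genes called or compared by level, and the 2 genes of most similar pattern for each member, of which some are not reported here. The 9 genes, the pathway and marker lists and the tests were chosen with earlier results of these data known. Single markers are named as parts of their lists.

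Alternatives were all genes above 0, a mean FPKM of at least 1, a pseudocount of 0.1, median-ratio scaling, equal FPKM totals, quantile normalization, eBayes without a trend, voom on recovered fragments, the replicate number as a block and leaving out each library. The thresholds of an unadjusted p under 0.05 and 1.5-fold were added after seeing the data. The fit was tested on simulated data.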

Additional observations from a re-analysis of the deposited data

How the results depend on the processing

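Directions of the log2 fold changes were kept in all 15 alternatives for 8 of the 9 genes. Ifnar2 turned to -0.0045 with median-ratio scaling and ran from -0.0232 (without WT replicate 3) to 0.191 with each library left out. The 2 genes called higher became 1 with all genes above 0, with median-ratio scaling and with quantile normalization, 5 with equal FPKM totals, 0 without a trend, 4 with voom and 0 at an unadjusted p under 0.05 and 1.5-fold on the log2(FPKM + 1) scale, and ran from 0 to 2 when each library was left out. No alternative gave a lower member. The 15 higher pathway genes became 9 without a trend and ran from 11 to 15 with each library left out. Over all genes, the 600 higher genes became 309 with all genes above 0, 341 with median-ratio scaling, 1049 with equal totals, 368 with quantile normalization and 237 without a trend, and 223 to 451 with each library left out. The 287 lower genes became 157 with all genes above 0, 153 without a trend and 150 to 237 with each library left out. More genes are tested with all genes above 0, and fewer libraries enter when 1 is left out. The cause of the changes in these counts was not tested for any setting. Same-numbered libraries did not deviate together (r of -0.15, 0.0158 and 0.0121 over 6293 genes), so no sign of pairing by number was seen. With 3 libraries a group these values cannot exclude a pairing. With the replicate block 1 member was called, Ifngr2 (adjusted p = 0.0454, limma), while Ifnar1 had 0.0549, and 14 pathway genes, 410 higher and 226 lower genes were called. The Ptpn2 to Jak1 ratio ran from -0.0443 (without Hemgn-/- replicate 2) to 0.113 with each library left out. Exact tests of the ratios cannot go below 0.1, or 0.2 without 1 library and 0.25 within replicate numbers, so they say nothing of stability. Jak2 and Ptpn2 rested on the fewest fragments, 628 to 992 a library. On the log2(FPKM + 1) scale their SEs of 0.11 each were below those of Ifnar2 (0.12), Tyk2 (0.14) and Stat2 (0.15). With voom the SEs of Jak2 (0.142) and Ptpn2 (0.144) were above that of Ifnar2 (0.131). They stayed below those of Tyk2 and Stat2 (0.148 each).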
